A study of Homo sapiens with 6 samples.

Results

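The products of the miR-106a to miR-363 cluster were followed in small RNA libraries of KPL4, an established line of human breast adenocarcinoma cells. The cluster is the X-linked paralog of the miR-17 to miR-92a polycistron. Its members were taken by name from the deposited table of mature microRNAs (miRNAs): miR-106a-5p, miR-106a-3p, miR-18b-5p, miR-20b-5p and miR-363-3p, 5 of 2656 miRNAs listed. One group of 3 libraries came from KPL4 cells in which the gene for estrogen receptor β (ERβ) was knocked out, called knockout S1, S2 and 3 here. The other group of 3 came from knockout cells transfected with exogenous ERβ, called ERβ 1, 2 and 3, so the cells of both groups carry the knockout. The labels name neither the promoter driving the exogenous receptor nor a clone number, and no empty-vector group is among the samples. The receptor's effect thus cannot be told apart from that of clone or transfection. The labels also do not call the replicates separate cultures, so p-values cover the spread among these libraries, which may be technical.

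A miRNA hairpin yields a 5p and a 3p arm, of which one usually predominates as the guide strand that loads into Argonaute and represses messenger RNAs matching its seed, bases 2 to 8. Hairpins of a polycistron are cut from a shared primary transcript. The miR-17 family, to which miR-106a-5p and miR-20b-5p belong, represses cell-cycle inhibitors such as CDKN1A, and its polycistrons are frequently overexpressed in tumours. The X-linked cluster is a copy, and several of its mature products are nearly or wholly identical to those of 13q31, which bears on how sequencing reads are assigned.

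The mature sequences below, from RefSeq on GRCh38.p14, are shown because the members differ from their autosomal relatives by very few bases in 3 pairs and by many in the case of miR-363-3p. RefSeq entries matched 4 of the 5 members by name. Each is written 5′ to 3′ with the seed in capitals, an X-linked member first and its autosomal relative after it. Of these relatives, miR-92a-3p is also made from MIR92A2 on chromosome X.
miR-106a-5p: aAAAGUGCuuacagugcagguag
miR-17-5p: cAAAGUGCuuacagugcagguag
miR-20b-5p: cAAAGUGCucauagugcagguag
miR-20a-5p: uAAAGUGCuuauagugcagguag
miR-18b-5p: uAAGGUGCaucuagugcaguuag
miR-18a-5p: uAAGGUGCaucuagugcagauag
miR-363-3p: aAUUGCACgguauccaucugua
miR-92a-3p: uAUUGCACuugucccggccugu
miR-25-3p: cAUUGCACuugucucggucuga

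Counting from 1 at the 5′ end, with the base of the autosomal relative first, miR-106a-5p differs from miR-17-5p only by C1A, its first base. miR-18b-5p differs from miR-18a-5p only by A20U. miR-20b-5p differs from miR-20a-5p by U1C and U10C. miR-363-3p shares the seed of miR-92a-3p and miR-25-3p but differs from them at 12 and 13 of 22 bases. The members thus fall into 3 seed groups: AAAGUGC for miR-106a-5p and miR-20b-5p, AAGGUGC for miR-18b-5p, and AUUGCAC for miR-363-3p.

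The 6 hairpins lie within 901 bases on the minus strand of chromosome X, from 134169378 to 134170278 (GRCh38, GENCODE release 29). In the direction of transcription they are ordered MIR106A, MIR18B, MIR20B, MIR19B2, MIR92A2 and MIR363. All 6 fall in exon 2 of the noncoding host gene AC002407.1 (chromosome X, 134168911 to 134174089, 2 exons), which RefSeq calls MIR106AHG.

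Total counts per library ranged from 10288415 to 14296902, and 783 miRNAs were abundant enough to test, all 5 members among them. The table holds expected counts, some of them fractions, as where a read is divided among several names. Knockout library S2 stood apart from the other knockout libraries, with a root mean square difference of 0.37 and 0.39 in log2 CPM (counts per scaled library total) from S1 and 3, against 0.14 between S1 and 3 and 0.13 to 0.15 among the ERβ libraries. The epithelial markers fixed for this line were abundant, with miR-200c-3p at 10996 CPM or more and miR-21-5p at 105781 CPM or more in every library, and miR-205-5p, a basal epithelial marker, at 3974 CPM or more. The least abundant was miR-375-3p, at 171 to 295 CPM. Of these 8 markers, 1 was higher with ERβ (miR-205-5p, log2 fold change 0.52) and 3 were lower (miR-200c-3p at -0.31, miR-141-3p at -0.33 and miR-375-3p at -0.57), and their part in the results below was not tested. Of 16 markers of other cell types, 9 could be tested, and 0 were higher and 4 lower with ERβ. Over all tested miRNAs 9.83% were higher and 13.3% lower. The 4 were miR-1-3p (log2 fold change -2.67), miR-143-3p (-1.15), miR-199b-5p (-0.80) and miR-126-3p (-0.30). The summed level of the 16 was 21889 to 22542 CPM in knockout and 18069 to 19265 CPM in ERβ libraries. Most of that was miR-126-3p, an endothelial miRNA, at 13079 to 16957 CPM, and miR-128-3p. None of the 16 was at 0 in every library, and their part in the results below was not tested.

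With exogenous ERβ, miR-20b-5p, miR-363-3p and miR-106a-3p fell to 46.3 to 49.9% of their knockout levels, while miR-106a-5p rose to 136% and miR-18b-5p did not pass the test. Of the 5 members, 3 were lower and 1 higher with edgeR (quasi-likelihood test, adjusted p under 0.05 after Benjamini and Hochberg), where 13.3% of all tested miRNAs were lower and 9.83% higher. The call for miR-106a-5p was lost in 4 of 15 alternative analyses, and how many of its reads came from MIR106A cannot be told. The median log2 fold change of the members was -1.003, against -0.01 over all tested miRNAs. Log2 fold changes below are of ERβ over knockout libraries, given ± their standard error for 3 libraries per group. In bulk libraries fewer cells that make a miRNA and less of it per cell cannot be told apart.

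miR-20b-5p, the most abundant member and a guide strand of the miR-17 family, stood at 568, 603 and 538 CPM in knockout libraries S1, S2 and 3. It stood at 286, 288 and 279 CPM in ERβ libraries 1, 2 and 3. The ERβ libraries were nearly equal and all lay far below the lowest knockout library. The log2 fold change was -1.003 ± 0.08 (edgeR adjusted p = 3.74e-05), the sixth smallest p of all miRNAs tested. Without knockout library S2 it was -0.96 ± 0.05. Its counts are fractional in 4 of 6 libraries, and those of miR-20a-5p in all 6.

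miR-363-3p, the last product of the cluster and a distant member of the miR-25 and miR-92 seed group, stood at 183, 156 and 192 CPM in the knockout libraries. In the ERβ libraries it stood at 85.1, 79.4 and 81.3 CPM. Knockout S2 was the lowest of its group for this miRNA and the highest for miR-20b-5p, and it still exceeded every ERβ library. The log2 fold change was -1.11 ± 0.10 (edgeR adjusted p = 7.94e-05), and -1.19 ± 0.06 without S2. All 6 of its counts are whole numbers, so no division of its reads among names is visible in the table.

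**Figure D1:**
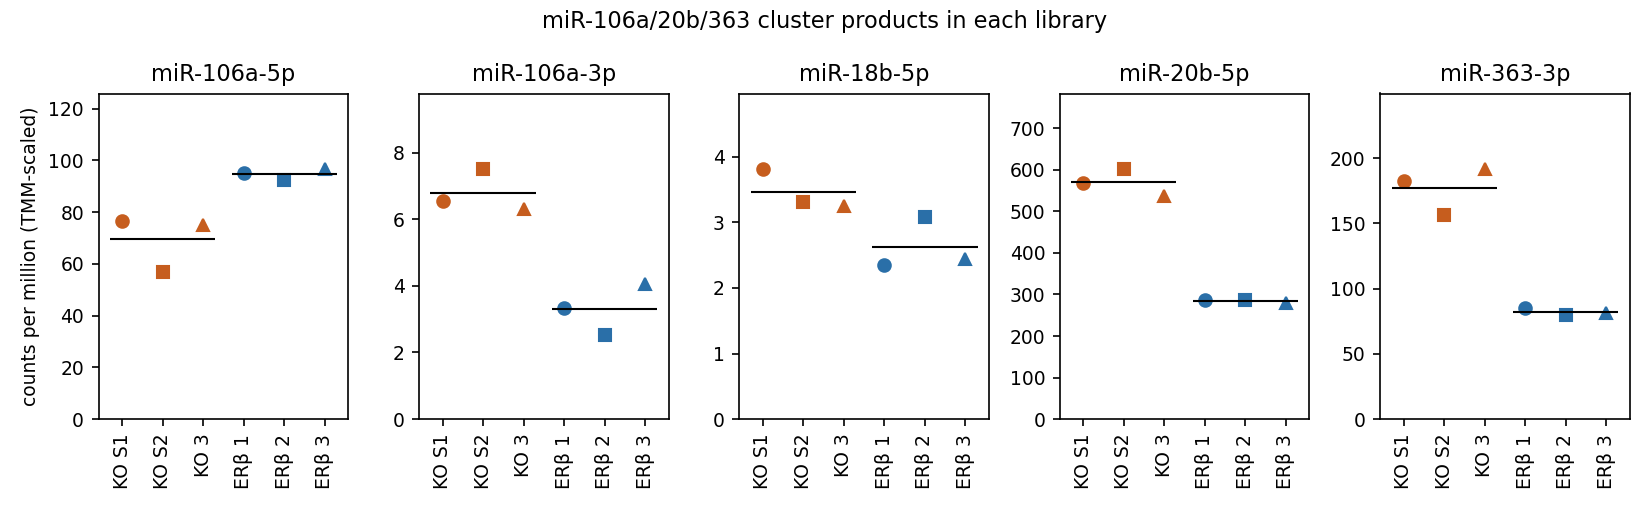
CPM (TMM-scaled, linear axis from 0) of the 5 members in each library, knockout in orange and ERβ in blue, with the group mean as a line; symbol shapes only tell the libraries of a group apart. miR-106a-3p, miR-20b-5p, miR-363-3p and miR-18b-5p lie lower in all 3 ERβ libraries than in any knockout library, and miR-106a-5p lies higher.

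The counts listed under the 2 arms of MIR106A moved in opposite directions, although how many of the miR-106a-5p reads came from that hairpin cannot be told. miR-106a-3p, the minor arm, stood at 6.55, 7.52 and 6.31 CPM in knockout and at 3.33, 2.54 and 4.06 CPM in ERβ libraries. These rest on 62 to 91 counts in each knockout library and 37 to 60 in each ERβ library, all whole numbers. The ERβ libraries again lay below every knockout library, and the log2 fold change was -1.04 ± 0.20 (edgeR adjusted p = 0.00464).

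miR-106a-5p, the guide arm, stood at 76.6, 57.0 and 75.2 CPM in knockout and at 95.1, 92.3 and 96.8 CPM in ERβ libraries. Here every ERβ library lay above every knockout library, and S2 was the lowest. The log2 fold change was 0.45 ± 0.12 (edgeR adjusted p = 0.0295), and 0.32 ± 0.06 without S2 (adjusted p = 2.32e-04). This call was lost without ERβ library 1, 2 or 3 (edgeR adjusted p = 0.0783, 0.0670 and 0.127), although the fold change stayed between 0.43 and 0.50. Its counts are fractional in 5 of 6 libraries.

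miR-18b-5p, of the miR-18 group known to target ESR1, was the least abundant member. It stood at 3.82, 3.31 and 3.26 CPM in knockout libraries and at 2.34, 3.08 and 2.43 CPM in ERβ libraries, on 26 to 46 counts each. The groups did not overlap, but the highest ERβ library came close to the lowest knockout library. The log2 fold change of -0.39 ± 0.20 did not pass (edgeR adjusted p = 0.198), with a 95% interval of -0.84 to 0.05. In all, 4 members had every ERβ library below every knockout library, as had 20.9% of tested miRNAs, and 1 had every ERβ library above, as had 18.9%.

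The order of the members by counts was not the same in both groups. In knockout cells it ran miR-20b-5p (570 ± 32.6 CPM, mean ± SD, n = 3), miR-363-3p (177 ± 18.4), miR-106a-5p (69.6 ± 10.9), miR-106a-3p (6.79 ± 0.643) and miR-18b-5p (3.46 ± 0.311), with no overlap between neighbours. In ERβ cells miR-106a-5p (94.7 ± 2.30 CPM) lay above miR-363-3p (81.9 ± 2.87), again without overlap. miR-20b-5p remained first at 284 ± 4.67 CPM. miR-106a-3p (3.31 ± 0.758 CPM) and miR-18b-5p (2.62 ± 0.399) overlapped there, so that their order could not be told. Counts of different miRNAs compare sequenced reads, since ligation and amplification differ by sequence.

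The remaining products of the 6 hairpins were shared with 13q31 or barely detected. miR-19b-3p and miR-92a-3p are made from hairpins of both clusters, and their reads cannot be assigned to either. miR-19b-3p stood at 5283 ± 834 CPM in knockout and 5047 ± 146 CPM in ERβ libraries (log2 fold change -0.07 ± 0.11, 95% interval -0.31 to 0.18). miR-92a-3p stood at 1892 ± 276 and 1946 ± 133 CPM (0.04 ± 0.11, interval -0.20 to 0.28). Neither passed (edgeR adjusted p = 0.712 and 0.823).

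The other arms were too rare to test. miR-363-5p, the minor arm of MIR363, had 5, 10 and 12 counts in knockout and 5, 5 and 3 in ERβ libraries. miR-18b-3p, miR-20b-3p, miR-19b-2-5p and miR-92a-2-5p had between 0 and 3 counts in any library, where 3 counts correspond to 0.201 to 0.305 CPM. In CPM, every ERβ library lay below every knockout library for miR-363-5p (0.834 ± 0.383 to 0.329 ± 0.124, mean ± SD) and miR-18b-3p. The groups overlapped for miR-20b-3p, miR-19b-2-5p and miR-92a-2-5p. On so few counts, whether these arms changed was not tested.

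**Figure D2:**
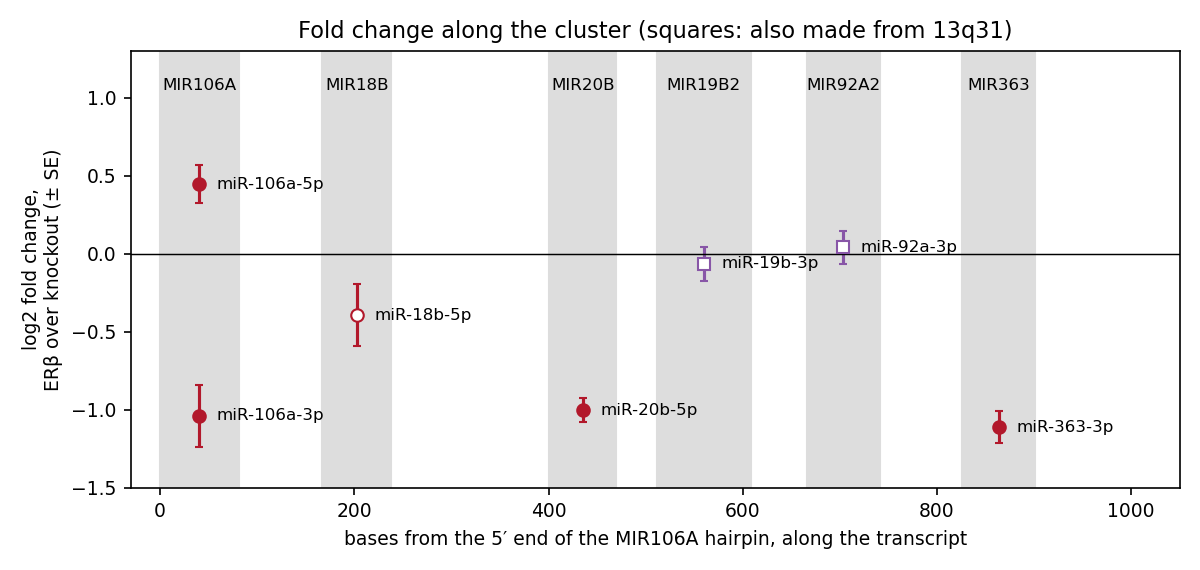
Log2 fold change (ERβ over knockout, ± standard error) of the 7 tested products against the position of their hairpins (grey), in bases from the 5′ end of MIR106A along the transcript. Filled symbols passed an adjusted p of 0.05. The members at -1.003 to -1.11 come from the first, the third and the last hairpin, and the squares near 0 are the products also made from 13q31.

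Whether members moved unlike their autosomal relatives was compared as the ratio of counts within each library, which does not depend on scaling between libraries. There were 5 such pairs, among them miR-363-3p with miR-92a-3p, which is made from hairpins of both clusters. With 3 against 3 libraries an exact two-sided permutation test cannot give a p below 0.1. In the pairs with miR-20a-5p, miR-18a-5p and miR-25-3p, the member was lower and the relative higher in CPM, each without overlap. Their ratios therefore had to separate, and the p of 0.1 adds nothing to those levels. miR-20b-5p had 13.2, 18.3 and 12.4 counts per 100 counts of miR-20a-5p in knockout libraries and 5.76, 5.76 and 5.38 in ERβ libraries. The log2 ratio differed by -1.35 between groups (exact permutation p = 0.1, Benjamini-Hochberg adjusted over 5 pairs 0.125). Knockout S2 had the highest ratio, and the difference was -1.18 without it.

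miR-18b-5p had 2.18, 2.60 and 1.84 counts per 100 of miR-18a-5p in knockout and 0.964, 1.20 and 0.928 in ERβ libraries, a difference of -1.09 in the log2 ratio (exact permutation p = 0.1, adjusted 0.125). The groups did not overlap in this ratio. Its 13q31 relative miR-18a-5p was higher with ERβ, at 159 ± 27.5 CPM in knockout and 252 ± 8.23 CPM in ERβ libraries (log2 fold change 0.67 ± 0.13; edgeR adjusted p = 0.00445).

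miR-363-3p had 10.7, 7.08 and 10.95 counts per 100 of miR-92a-3p in knockout and 4.18, 3.95 and 4.54 in ERβ libraries (difference in log2 ratio -1.15). Since miR-92a-3p is also made from MIR92A2 of this cluster, that ratio does not set X-linked against autosomal reads alone. Against miR-25-3p, its seed relative of the MCM7 cluster, it had 1.58, 1.23 and 1.61 counts per 100 in knockout and 0.634, 0.588 and 0.581 in ERβ libraries (difference -1.28). In both ratios every ERβ library lay below every knockout library (exact permutation p = 0.1, adjusted 0.125 for each).

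The ratio of miR-106a-5p to miR-17-5p was nearly constant. It was 19.8, 18.4 and 17.6 counts per 100 of miR-17-5p in knockout and 19.2, 19.1 and 19.2 in ERβ libraries. The groups overlapped, and the log2 ratio differed by 0.04 (exact permutation p = 0.4, adjusted 0.4), with 0.01 to 0.09 when each library was left out. miR-17-5p itself was higher with ERβ, from 375 ± 59.8 to 495 ± 11.2 CPM (0.40 ± 0.11; edgeR adjusted p = 0.0327). Its counts are fractional in all 6 libraries, and how reads that fit both names were counted is not stated in the labels.

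**Figure D3:**
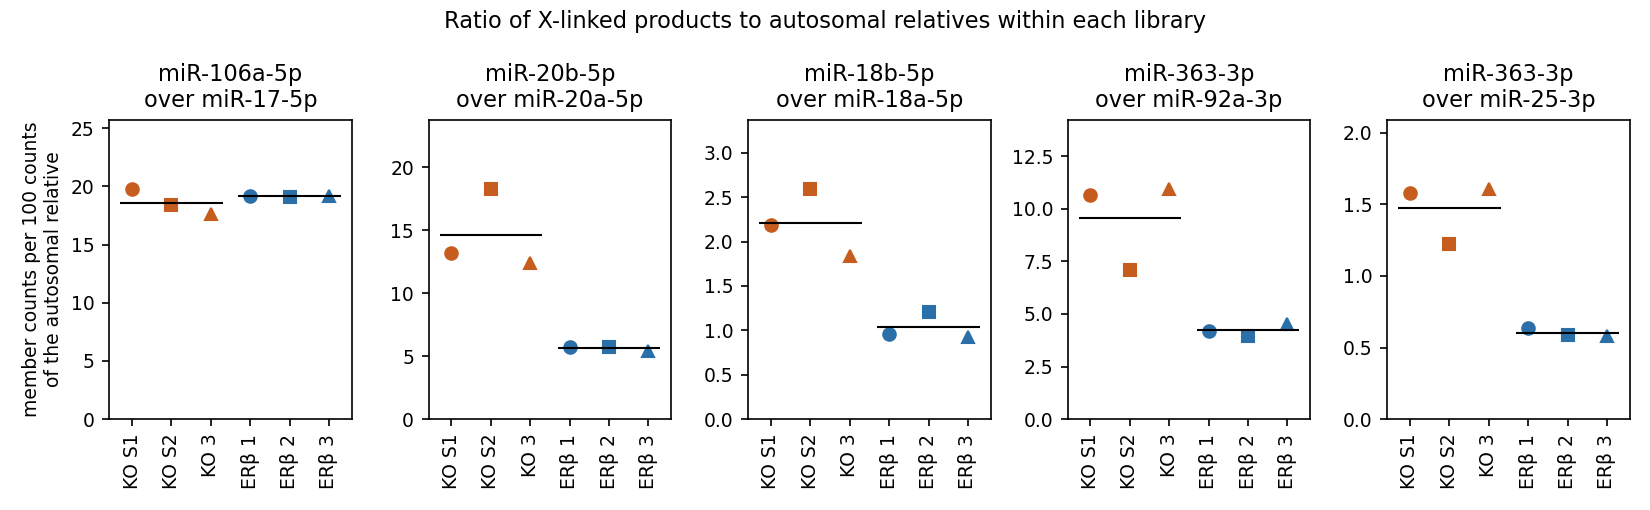
Counts of each X-linked member per 100 counts of an autosomal relative in the same library (linear axis from 0), knockout in orange and ERβ in blue, with group means as lines and shapes that pair no libraries. Of these relatives, miR-92a-3p is also made from the X-linked cluster. The ratio of miR-106a-5p to miR-17-5p stays between 17.6 and 19.8, while the other 4 ratios are lower in every ERβ library than in any knockout library.

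A further 7 ratios were chosen after the values were seen. Those of miR-106a-5p to miR-106a-3p and to miR-20b-5p, and of miR-106a-3p to miR-17-3p, had to separate. In each of these the paired names moved apart in CPM without overlap. Between the names of the MIR106A arms, miR-106a-5p, whose reads cannot all be assigned to that hairpin, had 11.7, 7.58 and 11.9 counts for each count of miR-106a-3p in knockout and 28.5, 36.3 and 23.9 in ERβ libraries, a difference of 1.51 in the log2 ratio (exact permutation p = 0.1, adjusted over 7 ratios 0.14). The same ratio of arms for MIR17 differed by 0.25, from 2.43 ± 0.213 to 2.88 ± 0.135, also without overlap (exact permutation p = 0.1, adjusted 0.14). The minor arm miR-106a-3p had 3.96, 5.51 and 3.94 counts per 100 of miR-17-3p in knockout and 2.01, 1.43 and 2.34 in ERβ libraries, so that the 3p arms of these hairpins diverged by -1.22 in the log2 ratio (exact permutation p = 0.1, adjusted 0.14).

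Among the members themselves, miR-363-3p had 32.2, 25.9 and 35.7 counts per 100 of miR-20b-5p in knockout and 29.7, 27.6 and 29.2 in ERβ libraries. These overlapped, with a difference of -0.10 in the log2 ratio (exact permutation p = 0.5, adjusted 0.583). miR-106a-3p had 1.15, 1.25 and 1.17 counts per 100 of miR-20b-5p in knockout and 1.17, 0.883 and 1.45 in ERβ libraries, also overlapping (difference -0.05; exact permutation p = 0.8, adjusted 0.8). miR-18b-5p had 0.548 to 0.664 counts per 100 of miR-20b-5p in knockout and 0.819 to 1.07 in ERβ libraries, with no overlap (difference 0.59; exact permutation p = 0.1, adjusted 0.14). miR-106a-5p had 9.45 to 13.98 per 100 of miR-20b-5p in knockout and 32.1 to 34.7 in ERβ libraries (difference 1.46; exact permutation p = 0.1, adjusted 0.14).

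The share of each seed group listed under the names of the X-linked members was small and lower with ERβ. miR-106a-5p and miR-20b-5p together made up 2.63 ± 0.269% of the counts of the miR-17 seed group in knockout and 1.33 ± 0.00771% in ERβ libraries (mean ± SD, n = 3 per group). miR-20b-5p alone made up 2.34 ± 0.190% and 0.997 ± 0.00875%. miR-18b-5p made up 2.16 ± 0.363% and 1.02 ± 0.147% of the miR-18 group, and miR-363-3p 1.23 ± 0.187% and 0.512 ± 0.0208% of the miR-25 and miR-92 group. In each case the groups did not overlap (exact permutation p = 0.1, adjusted over 4 shares 0.1). All 4 separations had to follow, and the p of 0.1 adds nothing to the levels. The X-linked part of each group was lower in CPM and the rest higher, each without overlap. The names outside the cluster with the miR-17 seed summed to 21274 to 27785 CPM in knockout and 27895 to 28387 CPM in ERβ libraries. Those with the seed of miR-363-3p summed to 13593 to 15200 and 15777 to 16100 CPM, and miR-18a-5p was higher likewise. Of the names outside the cluster with the miR-17 seed, 4 of 6 were tested, and 2, miR-17-5p and miR-20a-5p, were higher and 0 lower (median log2 fold change 0.37). Of 5 with the seed of miR-363-3p, 4 were tested and 0 passed (median 0.17).

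The paralogous clusters did not show the fall seen for miR-20b-5p and miR-363-3p. In the 13q31 cluster, the chief polycistron of the family, 3 of 9 tested products made from its hairpins alone were higher and 0 lower, with a median log2 fold change of 0.28. In the MCM7 cluster of miR-106b, miR-93 and miR-25, 0 of 6 passed, with a median of 0.19. Among the products made from 13q31 or MCM7 hairpins alone, the most abundant of each cluster were miR-20a-5p at 0.34 ± 0.11 (3984 ± 597 to 5048 ± 121 CPM) and miR-93-5p, which did not pass, at 0.21 ± 0.13 (19371 ± 4127 to 22373 ± 364 CPM). The difference between clusters was compared only through the ratios above, several of which had to separate given the levels.

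The nearest other miRNA cluster on the chromosome is that of miR-424, miR-503, miR-542 and miR-450, 369906 bases away on the same strand. Of its 11 tested products 9 were lower and 0 higher, with a median log2 fold change of -0.60. miR-424-5p, which restrains cell-cycle genes, was at -1.09 ± 0.08 (1196 ± 60.2 to 560 ± 26.7 CPM). This is close to miR-20b-5p at -1.003 and miR-363-3p at -1.11. Of the other listed miRNAs that RefSeq's table places on chromosome X alone, 61 were tested, among them 10 of the 11 above (miR-542-3p is not matched there). Of the 61, 5 were higher and 19 lower (median -0.18). The 19 include every lower product of the miR-424 cluster except miR-542-3p, so those calls are counted in both lists. Over all tested miRNAs 9.83% were higher and 13.3% lower.

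**Figure D4:**
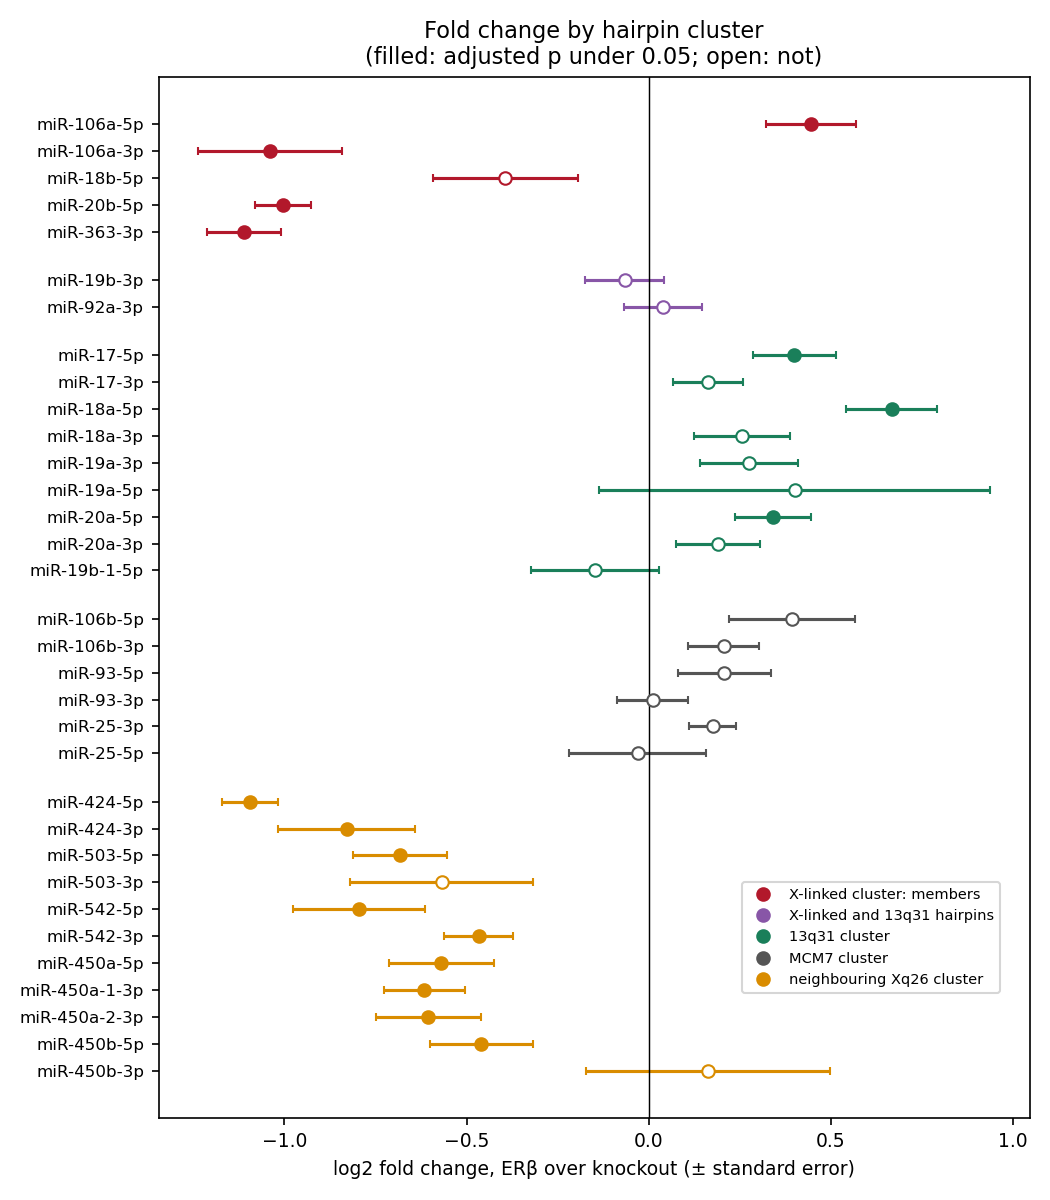
Log2 fold change (ERβ over knockout, ± standard error, 3 libraries per group) of tested products, coloured by hairpin cluster; filled points passed an adjusted p of 0.05. miR-20b-5p, miR-363-3p and miR-106a-3p lie near -1 beside miR-424-5p, whereas the tested 13q31 products range from -0.15 to 0.67.

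The miRNAs most like each member were those with the highest Pearson correlation of log2 CPM over the 6 libraries among 389 others averaging at least 10 CPM. For miR-20b-5p they were miR-1287-5p, miR-23b-3p and miR-10a-3p (r = 0.995, 0.995 and 0.994). For miR-363-3p they were miR-10a-5p, miR-708-5p and miR-152-3p (0.997, 0.997 and 0.992). For miR-106a-5p they were miR-934, miR-20a-5p and miR-335-3p (0.994, 0.992 and 0.988). These values describe 6 libraries in 2 groups, and any miRNA that differs between the groups with a like spread scores high. The miRNAs named for miR-20b-5p and miR-363-3p were all lower with ERβ, and those named for miR-106a-5p all higher.

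The start of the cluster's host gene is shown as a description. The deposited counts are of mature miRNAs, so transcription of the host gene was not measured. RefSeq's window around the start of MIR106AHG, 250 bases before to 50 after, is chrX:134174039-134174338 (GRCh38.p14, minus strand), written 5′ to 3′ with a match to the estrogen response element half-site in capitals.
MIR106AHG: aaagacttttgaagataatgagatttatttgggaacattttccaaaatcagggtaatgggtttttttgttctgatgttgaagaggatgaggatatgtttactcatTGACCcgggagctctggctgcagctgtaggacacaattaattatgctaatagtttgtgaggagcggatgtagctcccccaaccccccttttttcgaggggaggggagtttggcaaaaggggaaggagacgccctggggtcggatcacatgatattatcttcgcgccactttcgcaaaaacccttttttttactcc

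The half-site GGTCA, searched on both strands, occurs 1 time, starting at base 106 of the window. It occurs in 37.4% of 35116 promoter windows of the same length. The full element GGTCANNNTGACC has 0 matches here and occurs in 0.0570% of windows, and the AP-1 site TGAGTCA has 0 matches and occurs in 4.95%. Such a match is a description of the letters, and binding was not measured in these samples.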

How the data were processed

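Small RNA libraries of 6 KPL4 samples were, per the labels' protocols, prepared with the QIAseq miRNA kit. The submitters' processing notes name FastQC, Trim Galore and GRCh38, with no versions. The aligner, the counter and the handling of shared reads and molecular identifiers are not stated there. The authors deposited 1 table of expected counts, 1 row per mature miRNA; in each library 6.33 to 7.27% of the entries are fractions. All 6 columns were used; 2 knockout columns carry the number 1 and are known by group only, called S1 and S2 after the index in their names.

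Counts were rounded to whole numbers. Groups were tested with edgeR 4.0.16 in R 4.3.3: filterByExpr defaults (minimum count 10, minimum total 15), TMM scaling, robust quasi-likelihood test, Benjamini-Hochberg adjustment over 783 miRNAs at 0.05, no covariates. TMM-scaled totals give CPM. Standard errors were obtained by dividing the fold change (log2) by the root of F. No pair of replicates was as close as counting noise (chi-square per degree of freedom 12.2 or more). Ratios within libraries used a pseudocount of 0.5 counts, and percentages none. The test was tried on simulated counts. Alternatives were DESeq2 1.42.0 size factors and test, upper-quartile factors, totals, 2 filters, limma-voom (limma 3.58.1), a replicate block, rounding down, a pseudocount of 5 and each library left out. Figures used matplotlib 3.10.9.

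The members, lists and alternatives were chosen with earlier results of these data known. Named miRNAs are the members, markers of cell types, all products of their hairpins, the paralogs compared with them, same-seed miRNAs, the neighbouring X-linked cluster and the 3 best correlated miRNAs of each member averaging 10 CPM or more.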

Additional observations from a re-analysis of the deposited data

How the results depend on the processing

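miR-20b-5p and miR-363-3p were lower and passed in all 15 alternatives (log2 fold change -1.04 to -0.85 and -1.19 to -0.95), and no member changed direction in any alternative that gave it a value. The count of members higher with ERβ was 0 with the replicate block and 0 to 1 with each library left out; members called lower numbered 2 or 3 throughout. With the replicate block, 88 miRNAs passed in all; with each library left out 111 to 279 did, the most without knockout library S2 (279) and 111, 112 and 111 without ERβ library 1, 2 or 3, against 181 with all libraries. Upper-quartile factors and library totals shifted the median of all miRNAs by 0.11 and 0.15 and raised the share of higher among all calls from 42.5% to 63.7% and 70.5%; relative to those shifts miR-20b-5p stayed at -1.003 and -1.002. miR-106a-3p and miR-18b-5p, and no other member, were too rare for the filter of 10 CPM in 3 libraries. The replicate numbers do not establish a pairing, since both groups share only 2 numbers and 2 knockout columns carry the same one. Deviations of libraries with the same number correlated at -0.26, 0.31 and 0.36, and those of libraries with different numbers at -0.34 to 0.22. With the replicate block miR-106a-5p had an edgeR adjusted p of 0.159 and miR-106a-3p 0.0514, and it changed the call of no other member. The differences in the 5 ratios to relatives, among them miR-92a-3p of both clusters, kept their direction in all 8 alternatives each. miR-18b-5p rests on 26 to 46 counts per library, and 4 minor arms on 0 to 3.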
